A study of Rattus norvegicus with 27 samples.

Results

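The interferon regulatory factors Irf1, Irf2, Irf7, Irf8 and Irf9 are 5 of the 14218 genes that the rat arrays of this series measured with a probe set of their own, a probe set being a group of short probes read together. Every probe set annotated with one of these symbols alone was taken, which gave 8 of the 20832 single-symbol probe sets: 3 for Irf2, 2 for Irf9 and 1 each for Irf1, Irf7 and Irf8. The brightest probe set of a gene over all arrays stands for the gene (1368073_at for Irf1, 1398561_at for Irf2, 1383564_at for Irf7, 1372097_at for Irf8 and 1383448_at for Irf9), and the other 3 (1382503_at and 1386518_at for Irf2, 1374627_at for Irf9) are described beside it. On the GRCr8 assembly the genes lie apart on 5 chromosomes, Irf1 at chr10:38417935-38424946, Irf2 at chr16:52171855-52283620, Irf7 at chr1:205796956-205800543, Irf8 at chr19:65699284-65721066 and Irf9 at chr15:33065422-33071881.

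The question was how rat oligodendrocyte progenitor cells (OPCs), the cells that mature into myelin-forming oligodendrocytes, respond to interferon-γ (IFNγ) while they differentiate. OPCs were selected with A2B5 magnetic beads from the cerebral cortex of pups at postnatal day 4 to 6 and expanded in platelet-derived growth factor (PDGF, 20 ng/mL), which keeps them dividing, with Noggin, which blocks bone morphogenetic proteins. The 27 arrays hold 3 donors in each of 9 groups: PDGF at 0 h, T3 (thyroid hormone, 10 nM, which starts differentiation) at 8, 24, 48 and 96 h, and T3 + IFNγ (10 ng/mL) at the same times. How many pups made up a donor is not given in the sources used here. T3 cultures were older than the PDGF cultures, which were read at 0 h only. The sources used here do not state whether PDGF was kept with T3. T3, a loss of PDGF and time in culture therefore cannot be told apart. Values are log2 signals after robust multi-array averaging (RMA), a normalisation across arrays, so a difference of 1 is a 2-fold change.

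The cultures carried markers of their label and of other cell types. OPC markers summed to log2 signals between 13.06 and 14.15 in all arrays. Oligodendrocyte markers summed to between 11.35 and 11.45 with PDGF and between 15.84 and 15.94 after 96 h of T3. With IFNγ Pdgfra, alone of 5 OPC markers measured, was called higher at 24, 48 and 96 h (0.71, 0.60 and 0.95). Of 5 oligodendrocyte markers measured, 0, 2, 3 and 3 were called lower with IFNγ at 8, 24, 48 and 96 h. Of all genes 1.58%, 6.35%, 8.53% and 5.63% were called lower. Astrocyte markers summed to between 12.12 and 13.81 over all arrays, and with IFNγ Aldh1l1 was called higher at 24, 48 and 96 h and Gjb6 lower at 96 h. Neuronal markers summed to between 8.85 and 10.48 without IFNγ and between 10.13 and 11.39 with it, and of 6 measured Tubb3 was called higher with IFNγ at each time and Nefl at 96 h. Cd8a was called higher at 48 and 96 h among 7 markers of T, B and dendritic cells, and no marker of vascular cells and fibroblasts was called. These marker genes were named after their values were seen, and their part in the results below was not tested. Microglial markers are set out beside Irf8. The T3 + IFNγ arrays of donor 2 at 8 and 24 h had a Gapdh 3′ minus 5′ signal of 0.37 and 0.11, above the −0.26 to 0.07 of the other 25 arrays. For beta-actin the same difference was 1.34 and 1.47, above the 0.76 to 1.16 of the other 25 arrays.

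Interferon regulatory factors bind DNA through a shared domain that reads the interferon-stimulated response element. IFNγ signals through receptor-bound JAK kinases to the gamma-activated site (GAS) in early target genes, Irf1 among them. Irf1 then activates antigen-presentation and antiviral genes, Irf2 largely opposes it at shared elements, Irf9 is the DNA-binding subunit of the complex ISGF3, which carries interferon signals to that element, Irf7 drives type I interferon genes once phosphorylated, and Irf8 works with partner factors and is best known from myeloid cells, where it shapes microglia and dendritic cells.

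The bases before the start site of the 4 genes with an entry in the RefSeq promoter table (GRCr8) are shown to place these elements. Capitals mark each match to the GAS pattern TTCNNNGAA or to the core of the response element, GAAA and GAAA with 2 bases of any kind between them, searched on both strands in the window from 250 bases before to 50 bases after the start. The sequences run 5′ to 3′ on the gene's strand, Irf1 from chr10:38417685-38417934 (plus), Irf7 from chr1:205800024-205800273 (minus), Irf8 from chr19:65699034-65699283 (plus) and Irf9 from chr15:33065586-33065835 (plus). The windows of Irf7 and Irf9 overlap the gene's annotated span, so their start sites are internal ones.
Irf1: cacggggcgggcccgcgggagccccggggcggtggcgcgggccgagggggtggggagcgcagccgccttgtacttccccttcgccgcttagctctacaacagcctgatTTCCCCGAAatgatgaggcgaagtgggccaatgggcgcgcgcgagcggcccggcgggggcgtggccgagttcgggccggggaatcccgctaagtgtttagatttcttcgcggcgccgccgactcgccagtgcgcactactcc
Irf8: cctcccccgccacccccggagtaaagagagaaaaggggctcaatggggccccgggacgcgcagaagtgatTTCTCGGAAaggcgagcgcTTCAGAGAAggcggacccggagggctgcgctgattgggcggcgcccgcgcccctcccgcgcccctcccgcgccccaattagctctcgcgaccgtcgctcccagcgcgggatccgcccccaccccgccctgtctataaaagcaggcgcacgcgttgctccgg
Irf9: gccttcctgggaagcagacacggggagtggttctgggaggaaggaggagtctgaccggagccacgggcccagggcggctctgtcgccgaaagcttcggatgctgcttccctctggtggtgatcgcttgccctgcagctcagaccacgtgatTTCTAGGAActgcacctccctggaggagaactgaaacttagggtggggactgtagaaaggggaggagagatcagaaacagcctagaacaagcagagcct
Irf7: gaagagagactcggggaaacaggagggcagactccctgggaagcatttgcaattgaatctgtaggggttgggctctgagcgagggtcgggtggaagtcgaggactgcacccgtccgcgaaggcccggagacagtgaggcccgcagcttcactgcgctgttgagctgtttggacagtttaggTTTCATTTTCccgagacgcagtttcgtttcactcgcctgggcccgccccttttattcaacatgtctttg
Counted from the start site, Irf1 held 1 GAS pattern at −142 to −134, Irf9 held 1 at −99 to −91, and Irf8 held a pair at −180 to −172 and −161 to −153. Irf7 held no GAS pattern and 1 response element core, on the opposite strand at −69 to −60. Of 33469 promoter windows in the table, 8.87% held a GAS pattern, 3.92% a response element core and 12.3% either. The patterns do not overlap one another in these windows, and a match describes the letters only.

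All 5 factors were higher with T3 + IFNγ than with T3 at 8, 24, 48 and 96 h. Each rise was seen in 3 of 3 donors, and at each time the lowest T3 + IFNγ array lay above the highest T3 array for every factor. Among all genes tested, 3.69%, 5.96%, 7.57% and 7.91% were called higher at the 4 times (limma, Benjamini-Hochberg adjusted p under 0.05), and 1.58%, 6.35%, 8.53% and 5.63% were called lower. All 3 arrays with IFNγ lay above all 3 without for 7.52%, 11%, 14.1% and 17.6% of genes at the 4 times. The size of the rise differed widely between factors, from near 2-fold for Irf2 to between 39.6- and 82-fold for Irf1.

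**Figure D1:**
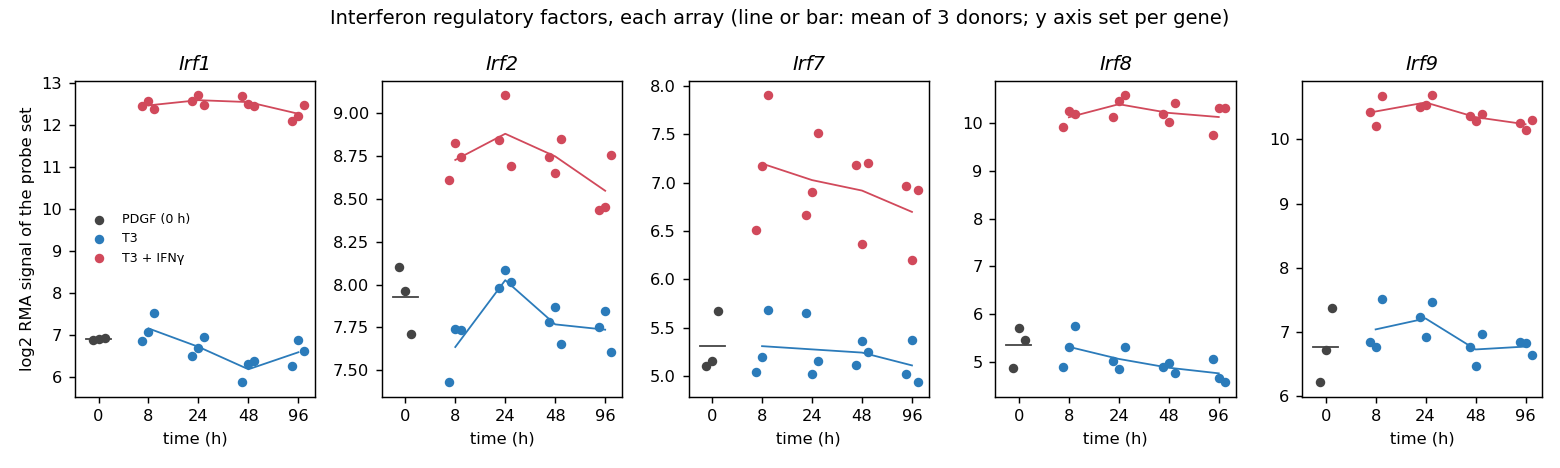
The log2 RMA signal of the brightest probe set of each factor is plotted for every array against time, with 1 point per donor, a line through the T3 and T3 + IFNγ means and a bar at the PDGF mean. In every panel the 12 T3 + IFNγ points lie above all T3 and PDGF points, by 4.57 for Irf1 and by 0.34 for Irf2 at the closest.

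Irf1, an early target of IFNγ, showed the largest rise. With PDGF its signal was 6.88, 6.91 and 6.95 in donors 1, 2 and 3. With T3 it was 6.87, 7.09 and 7.53 (8 h), 6.51, 6.71 and 6.96 (24 h), 5.88, 6.31 and 6.39 (48 h), and 6.28, 6.88 and 6.64 (96 h). With T3 + IFNγ it was 12.46, 12.58 and 12.38 (8 h), 12.58, 12.71 and 12.49 (24 h), 12.69, 12.50 and 12.46 (48 h), and 12.11, 12.23 and 12.48 (96 h). The 12 arrays with IFNγ thus formed a narrow band far above the 15 arrays without it. The log2 change with IFNγ was 5.31, 5.87, 6.36 and 5.67 at the 4 times (SE 0.17, limma adjusted p = 2.25e-16, 2.54e-17, 1.78e-17 and 5.33e-17). The confidence interval was 4.96 to 5.65 at 8 h and 6.01 to 6.70 at 48 h, the time of the largest change. Within T3 + IFNγ the mean stayed between 12.27 and 12.59, and the larger change at 48 h came with the lowest T3 mean, 6.19 ± 0.27 (SD, n = 3).

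Irf8, the myeloid factor, rose nearly as far. Its signal was 4.87, 5.72 and 5.46 with PDGF in donors 1, 2 and 3. With T3 it was 4.89, 5.31 and 5.74 (8 h), 5.02, 4.86 and 5.31 (24 h), 4.89, 4.97 and 4.78 (48 h), and 5.05, 4.66 and 4.57 (96 h). All 15 values lay below 5.99, the median of all values in the table, so Irf8 was among the dimmer probe sets without IFNγ, and no detection call was used. With T3 + IFNγ it was 9.92, 10.26 and 10.20 (8 h), 10.14, 10.47 and 10.58 (24 h), 10.20, 10.02 and 10.43 (48 h), and 9.76, 10.32 and 10.32 (96 h). The groups were separated by 4.02 between the highest array without IFNγ and the lowest with it. The log2 change was 4.81, 5.34, 5.34 and 5.37 at 8, 24, 48 and 96 h (SE 0.22, limma adjusted p = 9.38e-14, 1.04e-14, 1.04e-14 and 1.14e-14), or 28- to 41.3-fold.

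Microglia, which express Irf8 in the brain, are a cell type that cultures of this kind can hold, and in bulk RNA fewer cells of a type and less RNA per cell cannot be told apart. Of 18 microglial and macrophage markers 16 were measured, and their summed log2 signal ran from 10.44 to 11.65 with PDGF. With T3 it ran from 10.52 to 11.93 at 8 h and from 9.23 to 9.60 at 96 h, and with T3 + IFNγ it was 11.14 to 12.53 (8 h), 11.52 to 13.09 (24 h), 11.18 to 13.35 (48 h) and 10.72 to 12.73 (96 h). With IFNγ 1, 5, 7 and 8 of the 16 were called higher at 8, 24, 48 and 96 h, and none was called lower. Of all genes 3.69%, 5.96%, 7.57% and 7.91% were called higher. C1qa and C1qc, complement genes among the 3 brightest, were not called at 8 h and rose by 2.71 and 3.18 at 24 h and by 3.58 and 3.49 at 96 h. C1qb, Ly86 and P2ry12 were called higher at 24, 48 and 96 h, and P2ry12 was the marker called at 8 h as well. Aif1 (2.65 and 3.16) and Cd53 (2.32 and 3.14) were called higher at 48 and 96 h, and Tyrobp (2.21) at 96 h. C1qb, another complement subunit, rose by 4.16 and Ly86 by 2.96 at 96 h. Laptm5, a lysosomal membrane gene and the other of the 3 brightest, changed by −0.02 at 8 h and 0.75 at 96 h, neither called.

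The purinergic receptor P2ry12, a gene typical of microglia, rose by 1.72 at 8 h and 3.04 at 96 h. The chemokine receptor Cx3cr1 changed by −0.02, 0.00, 0.03 and 0.04 at the 4 times. Tmem119, also typical of microglia, changed by between −0.40 and −0.07, and the broader myeloid and leukocyte genes Itgam and Ptprc by 0.07 to 0.56 and 0.61 to 1.89. No change of these 4 passed the test. Group means lay between 5.79 and 5.90 for Cx3cr1, 5.06 and 5.58 for Tmem119, and 4.68 and 5.47 for Itgam. All of these were below 5.99, the median of all values, and no detection call was used. Within the 15 arrays without IFNγ the Irf8 signal ran with the microglial sum, with a Pearson coefficient of 0.86, and within the 12 arrays with IFNγ the coefficient was 0.43. These are descriptions over arrays that share 3 donors. The same coefficients were 0.69 and 0.00 for Irf1, 0.01 and 0.25 for Irf2, 0.42 and 0.68 for Irf7, and 0.57 and 0.55 for Irf9. The T3 array with the highest sum without IFNγ, donor 3 at 8 h, had a sum of 11.93 and an Irf8 signal of 5.74, and the T3 + IFNγ array with the lowest sum, donor 2 at 96 h, had a sum of 10.72 and an Irf8 signal of 10.32. At 8 h the sum was higher with IFNγ by 0.50 to 0.62 in single donors and Irf8 by 4.45 to 5.03. The sum holds genes called higher with IFNγ, C1qa, C1qb and C1qc among them, so equal sums need not mean equal microglial content. The part of microglia in the Irf8 signal was not tested.

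**Figure D2:**
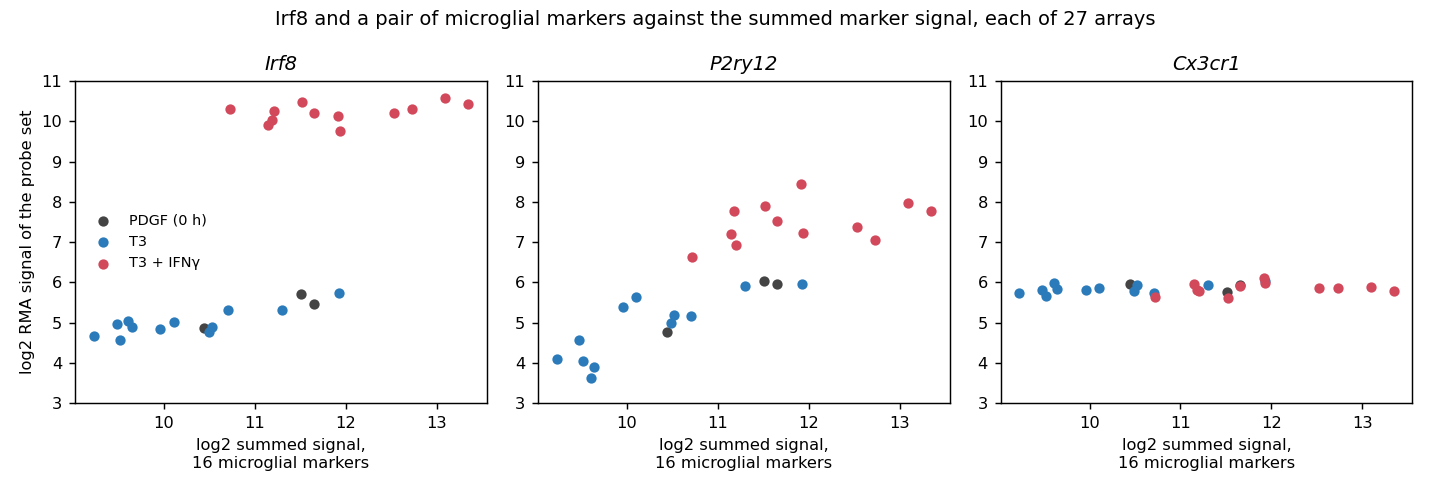
Each of the 27 arrays is a point, with the log2 sum of 16 microglial markers on the x axis and the log2 RMA signal of Irf8, P2ry12 or Cx3cr1 on the y axis. Between sums of 10.72 and 11.93 arrays with and without IFNγ share the x axis. There Irf8 stayed at or below 5.74 without IFNγ and at or above 9.92 with it. Cx3cr1 lay between 5.61 and 6.12 in every array. The sum holds genes called higher with IFNγ, so equal sums need not mean equal microglial content.

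Irf9, the DNA-binding subunit of ISGF3, was measured by a pair of probe sets, and both rose. The brighter read 6.21, 6.71 and 7.37 with PDGF in donors 1, 2 and 3. With T3 it read 6.84, 6.76 and 7.52 (8 h), 7.23, 6.93 and 7.47 (24 h), 6.76, 6.46 and 6.96 (48 h), and 6.85, 6.83 and 6.63 (96 h). The donors were farthest apart with PDGF, and of the T3 times at 8 h. With T3 + IFNγ it read 10.42, 10.21 and 10.67 (8 h), 10.50, 10.54 and 10.68 (24 h), 10.36, 10.28 and 10.40 (48 h), and 10.26, 10.14 and 10.30 (96 h). The log2 change with IFNγ was 3.39, 3.36, 3.62 and 3.46 at 8, 24, 48 and 96 h (SE 0.22, limma adjusted p = 5.51e-11, 5.02e-11, 1.38e-11 and 2.79e-11), or 10.3- to 12.3-fold. The dimmer probe set rose by 3.04, 3.40, 3.50 and 2.90 (SE 0.17, limma adjusted p = 5.72e-12, 5.37e-13, 2.87e-13 and 1.08e-11 over all single-symbol probe sets).

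Irf7, the factor of type I interferon genes, rose less and varied more between donors. Its signal was 5.11, 5.16 and 5.67 with PDGF in donors 1, 2 and 3. With T3 it was 5.05, 5.20 and 5.68 (8 h), 5.65, 5.02 and 5.16 (24 h), 5.12, 5.36 and 5.25 (48 h), and 5.03, 5.37 and 4.94 (96 h). These 15 values were below the median of all values, as for Irf8. With T3 + IFNγ it was 6.51, 7.18 and 7.90 (8 h), 6.66, 6.90 and 7.51 (24 h), 7.18, 6.37 and 7.20 (48 h), and 6.96, 6.20 and 6.93 (96 h). The highest T3 + IFNγ value was that of donor 3 at 8 h, the lowest that of donor 2 at 96 h, and the gap to the highest array without IFNγ was 0.52. The log2 change was 1.88, 1.75, 1.67 and 1.58 at the 4 times (SE 0.30, limma adjusted p = 1.60e-04, 2.87e-04, 3.76e-04 and 6.99e-04), and in single donors it ran from 0.83 to 2.35. The array of the lowest Irf7 signal with IFNγ was also the one of the lowest microglial sum, 10.72, and the part of those cells in the donor spread was not tested.

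Irf2, which competes with Irf1 for shared elements, had the smallest rise, on a probe set with a small spread. The signal was 8.10, 7.96 and 7.71 with PDGF in donors 1, 2 and 3. With T3 it was 7.43, 7.74 and 7.74 (8 h), 7.98, 8.08 and 8.01 (24 h), 7.78, 7.87 and 7.65 (48 h), and 7.75, 7.85 and 7.61 (96 h). With T3 + IFNγ it was 8.61, 8.83 and 8.75 (8 h), 8.85, 9.10 and 8.69 (24 h), 8.74, 8.65 and 8.85 (48 h), and 8.43, 8.45 and 8.76 (96 h). No array with IFNγ fell to the level of an array without it, with 0.34 between the nearest. The log2 change was 1.09, 0.85, 0.98 and 0.81 (SE 0.12, limma adjusted p = 8.47e-07, 2.41e-05, 3.05e-06 and 4.04e-05), or 2.13-, 1.81-, 1.97- and 1.75-fold.

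The other 2 probe sets of Irf2 were not called with IFNγ at any time. The first, 1382503_at, lay between 5.08 and 5.28 in all group means and changed by −0.11, 0.01, −0.04 and 0.13 with IFNγ at the 4 times. Its interval at 8 h, −0.46 to 0.23, did not reach the 1.09 of the brightest probe set. The second, 1386518_at, lay between 3.63 and 4.08 and changed by 0.10, −0.06, 0.43 and 0.17 (interval 0.11 to 0.76 and limma adjusted p = 0.0734 at its largest, over all single-symbol probe sets). Both were dimmer than the median of all values, and the second was called higher than PDGF at 48 h of T3 + IFNγ (0.41, adjusted p = 0.0433). The mean of the 3 probe sets gave Irf2 a change of 0.27 at 24 h with an adjusted p of 0.0602, and it was called at the other times.

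**Figure D3:**
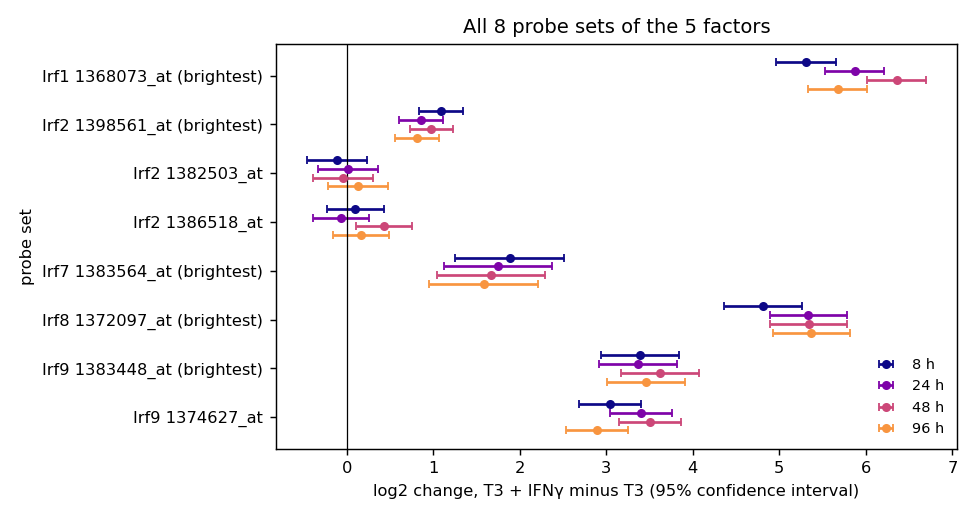
The log2 change, T3 + IFNγ minus T3, is plotted with its 95% confidence interval for each of the 8 probe sets, with 1 point per time. Both Irf9 probe sets lie between 2.90 and 3.62, and the brightest Irf2 probe set lies between 0.81 and 1.09. Of the other Irf2 intervals, that of 1386518_at at 48 h, 0.11 to 0.76, does not include 0.

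Without IFNγ the factors changed little as the cells differentiated. With T3 against PDGF no factor was called at 8 h or 24 h, 1 was called at 48 h and 1 at 96 h, both lower. Of all genes 5.37%, 17.8%, 25.7% and 29.5% were called lower at the 4 times, so 1 factor of 5 at 48 and at 96 h is no more than the background. Another 1039, 2437, 2484 and 3327 of the 14218 genes were called higher at these times. Irf1 was lower than PDGF by 0.72 at 48 h (SE 0.17, limma adjusted p = 0.00102), in 3 of 3 donors and with no overlap of the groups. At that time 6 of the 16 microglial markers were called lower as well, their part in it not tested. Irf8 was lower by 0.59 at 96 h (SE 0.22, limma adjusted p = 0.0263), in 2 of 3 donors and with overlapping groups. That Irf8 call was lost without donor 2 (−0.35, adjusted p = 0.382) and without donor 3 (−0.44, adjusted p = 0.217), and 13 of the 16 microglial markers were called lower than PDGF at 96 h of T3 as well, their part in it not tested. With donor as a block, 2 further changes passed: Irf9 at 24 h (0.44, adjusted p = 0.0457) and Irf8 at 48 h (−0.47, adjusted p = 0.0482).

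For Irf9 the probe sets differed in this comparison. The dimmer one was called higher than PDGF at 96 h, by 0.50 (SE 0.17, limma adjusted p = 0.0183), where the brighter changed by 0.01 (SE 0.22, adjusted p = 0.983). Irf7 and Irf2 had changes from −0.29 to 0.10 in this comparison, none called. The largest of them was Irf2 at 8 h, −0.29, with an interval of −0.54 to −0.04 and an adjusted p of 0.132.

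From one time to the next under T3, 23.1%, 18.1% and 26.5% of all genes were called from 8 to 24 h, 24 to 48 h and 48 to 96 h, in either direction. Irf2 rose by 0.39 from 8 to 24 h (SE 0.12, limma adjusted p = 0.0216), in 3 of 3 donors with no overlap, and Irf1 fell by 0.53 from 24 to 48 h (SE 0.17, limma adjusted p = 0.0268), likewise. Both calls were lost without donor 2, at adjusted p = 0.117 for Irf2 and 0.165 for Irf1, the first also without donor 1 (0.173) and the second also without donor 3 (0.135). With donor as a block 3 further steps passed: Irf1 from 8 to 24 h (−0.44, adjusted p = 0.0249), Irf9 from 24 to 48 h (−0.48, adjusted p = 0.0452) and Irf1 from 48 to 96 h (0.41, adjusted p = 0.0341). Under T3 + IFNγ no factor was called in any of these steps, where 25%, 15.3% and 24% of all genes were, and the 15 changes lay between −0.28 and 0.27.

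Against the PDGF cultures all 5 factors were higher with T3 + IFNγ at each time, beside 8.95%, 19.7%, 16.7% and 22.4% of all genes called higher at 8, 24, 48 and 96 h. These comparisons share the PDGF arrays with those of T3 alone. The log2 difference from PDGF was 5.36 to 5.68 for Irf1, 4.78 to 5.05 for Irf8, 3.47 to 3.81 for Irf9, 1.38 to 1.88 for Irf7 and 0.62 to 0.96 for Irf2. The largest adjusted p among the 20 was 5.04e-04, for Irf7 at 96 h.

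Ordered by level, the 4 T3 + IFNγ groups stood above the 5 groups without IFNγ for every factor, and the step between those 2 blocks was the only difference between neighbours that passed the test. The T3 + IFNγ mean was highest at 24 h for Irf1, Irf2, Irf8 and Irf9 and at 8 h for Irf7, and no neighbouring group in that order was called different from it. For Irf9 the 48 h arrays with IFNγ lay below the 24 h arrays with no overlap, by 0.23 (limma adjusted p = 0.561). The lowest of all 9 means was at T3 48 h for Irf1 and Irf9, T3 8 h for Irf2, and T3 96 h for Irf7 and Irf8.

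Whether the IFNγ effect itself differed between times was tested as an interaction. None of the 5 factors was called from 8 to 24 h, 24 to 48 h, 48 to 96 h or 8 to 96 h, where 0.668%, 0.506%, 2.81% and 4.32% of all genes were. At an unadjusted p under 0.05 there were 3, all for Irf1. Its effect was larger at 24 than at 8 h by 0.56 (interval 0.08 to 1.05, limma adjusted p = 0.533), larger at 48 than at 24 h by 0.49 (0.00 to 0.97, adjusted p = 0.660) and smaller at 96 than at 48 h by 0.68 (interval −1.17 to −0.20, adjusted p = 0.141). For Irf8 the effect at 96 h exceeded that at 8 h by 0.56 (interval −0.08 to 1.20, adjusted p = 0.393), and this passed without donor 1 (1.001, adjusted p = 0.0334). The interval for the same difference was −1.19 to 0.59 for Irf7, −0.64 to 0.08 for Irf2 and −0.57 to 0.71 for Irf9.

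**Figure D4:**
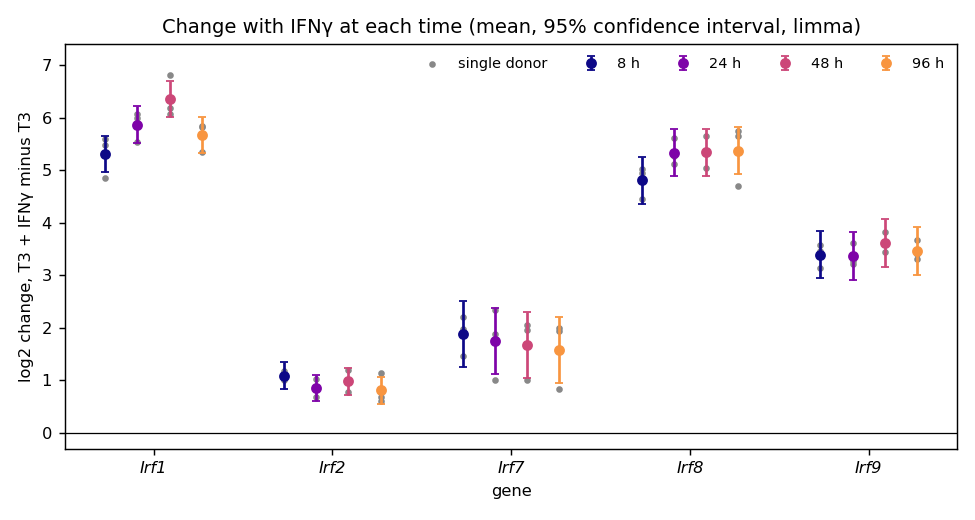
The log2 change, T3 + IFNγ minus T3, is plotted for each factor at 8, 24, 48 and 96 h, with 95% confidence intervals from the fit and small grey points for single donors. The changes of Irf1 run from 5.31 to 6.36 and those of Irf2 from 0.81 to 1.09, and all single-donor points are above 0.

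Not every member of the family was called. Irf3, which is present before stimulation and is activated by phosphorylation, had group means from 8.18 to 8.51 and changed with IFNγ by −0.10, −0.09, 0.14 and 0.06 (SE 0.08), none called. Irf5, a mediator of Toll-like receptor signals, had group means from 4.82 to 5.22 and changed by 0.37, 0.05, 0.33 and 0.34 (SE 0.18, lowest limma adjusted p = 0.244). Its means were all below 5.99, the median of all values, so a small rise of Irf5 could have been missed. Irf4 was not analysed here. In the promoter table the windows of Irf3, Irf4 and Irf5 held 0 matches to either pattern.

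The genes of the co-repressors that Irf2 recruits were nearly flat with IFNγ. Of 3 measured, Irf2bpl rose with IFNγ at 48 h, by 0.53 (SE 0.13, limma adjusted p = 0.00505). Irf2bp1 and Irf2bp2 were called with IFNγ at no time, with changes between −0.15 and 0.07. With T3 against PDGF 2, 2, 1 and 2 of the 3 were called lower at 8, 24, 48 and 96 h. Of all genes 5.37%, 17.8%, 25.7% and 29.5% were called lower there. Of 8 DNA-binding partners 4 were measured, and 2, 2, 2 and 1 were called higher with IFNγ at 8, 24, 48 and 96 h. The share of all genes called higher was 3.69%, 5.96%, 7.57% and 7.91%. Stat2, the ISGF3 subunit beside Irf9, rose by 3.04, 3.17, 3.08 and 2.69 (SE 0.11), with an adjusted p of 5.39e-16 at 24 h. Batf3, a partner of Irf8 in dendritic cells, rose by 1.45 at 8 h (SE 0.20, limma adjusted p = 2.64e-05), 0.64 at 24 h and 0.97 at 48 h, and changed by 0.20 at 96 h, not called. Spi1 (PU.1), a partner of Irf8 in myeloid cells, was not analysed here.

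Of 18 sensors, adaptors and kinases upstream of Irf3, Irf5 and Irf7, 14 were measured, and 3, 5, 5 and 5 were called higher and none lower. The share of all genes called higher was 3.69%, 5.96%, 7.57% and 7.91%. The RNA sensor Ifih1 rose by 2.05 at 96 h and its relative Dhx58 by 2.02 at 48 h. The adaptors Myd88 and Sting1 rose by 1.48 and 1.64 at 48 h (SE 0.19 and 0.35). The list's median change was 0.20, 0.43, 0.57 and 0.75 at the 4 times, against −0.04, −0.04, −0.05 and −0.02 over all genes.

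The interferon genes measured were not called. Ifnb1 changed by between −0.11 and 0.00 and Ifng by between −0.14 and 0.04. Of 10 interferon and receptor genes 8 were measured, with 0, 2, 3 and 3 called higher and none lower. The share of all genes called higher was 3.69%, 5.96%, 7.57% and 7.91%. The receptor chains Il10rb, Ifnar2 and Ifngr2 rose, by 1.14 at 96 h, 0.88 at 24 h and 0.70 at 48 h (SE 0.18, 0.18 and 0.10), and none of the 3 was called at 8 h, when all 5 factors were. The list's median was 0.00, 0.00, 0.17 and 0.12, against −0.04, −0.04, −0.05 and −0.02 over all genes.

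Genes with known elements for these factors had the largest median change of the 6 lists. Of 20 targets 19 were measured, and 15, 16, 17 and 17 were called higher and none lower. The share of all genes called higher was 3.69%, 5.96%, 7.57% and 7.91%. The targets had a median change of 3.23, 4.23, 4.36 and 4.74. They were listed for known elements of these factors, with earlier results of these data known. A high count and median were therefore likely in advance and are given as a description. Gbp2, a guanylate-binding GTPase and an Irf1 target, rose by 7.34 at 48 h (SE 0.32), the chemokine Cxcl10 by 7.22 at 24 h (SE 0.32), the antiviral gene Ifit2 by 6.83 at 96 h (SE 0.22) and the immunoproteasome subunit Psmb9 by 6.81 at 96 h (SE 0.20), all with adjusted p under 0.05. The inducible nitric oxide synthase Nos2 and the antiviral gene Ifit1, named here after their values were seen, were called at no time. Nos2 changed by between −0.08 and 0.01. In 7 of the 19 targets the effect differed between 8 and 96 h, larger at 96 h in 6 and smaller in 1. No factor was called in that comparison, and 4.32% of all genes were.

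**Figure D5:**
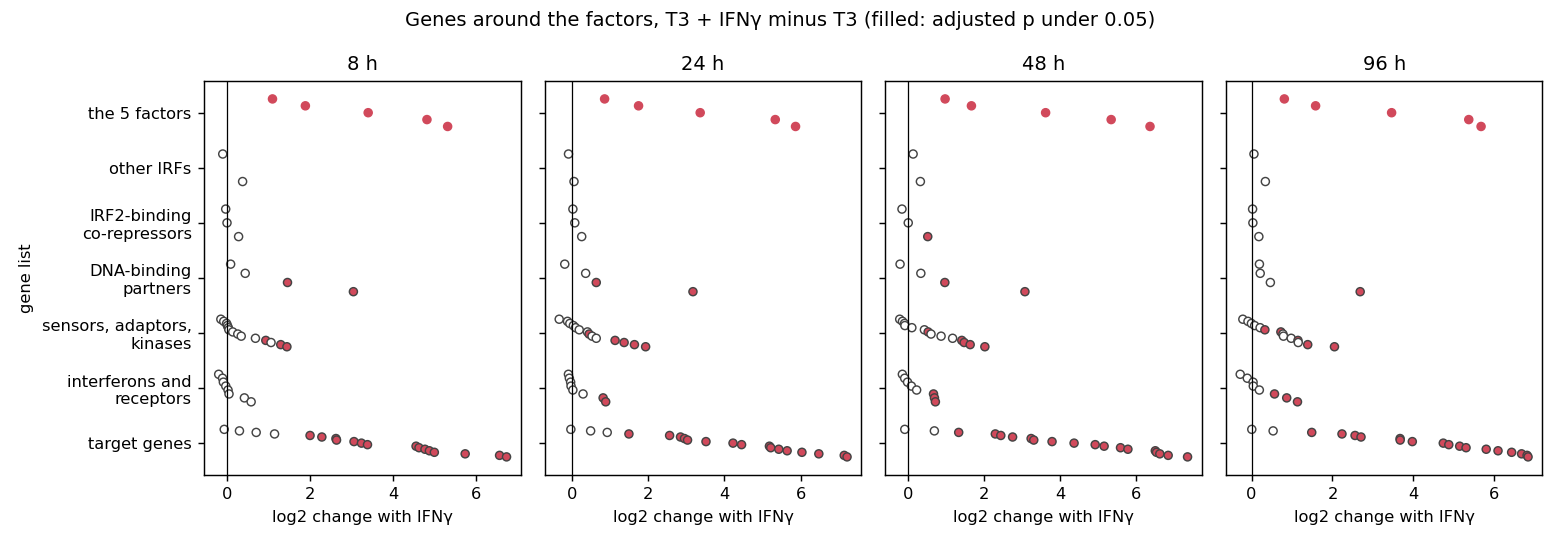
The log2 change, T3 + IFNγ minus T3, is plotted for the 5 factors and for each gene of 6 lists, with 1 panel per time, filled points for an adjusted p under 0.05 and open points for the rest. All filled points lie to the right of 0, and the target genes reach 7.34.

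The genes whose signals ran most like each factor were taken over the 27 arrays. By Pearson's coefficient across arrays, given as a description, Irf1 ran most like Parp14 (0.997), Dtx3l (0.996) and Igtp (0.996), Irf8 most like Igtp (0.995), Rnf213 (0.995) and Irgm2 (0.995), and Irf9 most like Irgm2 (0.992), Rtp4 (0.992) and Igtp (0.992). Irf7 ran most like the adhesion gene Icam1 (0.952), Pml (0.951) and the class I gene RT1-T24-3 (0.945), and Irf2 most like Nlrc5 (0.950), Shfl (0.945) and Atp13a1 (0.940). These values rest on the split between 12 arrays with IFNγ and 15 without. Within the 12, the coefficient was 0.38 for Irf1 and Parp14, 0.54 for Irf8 and Igtp, and −0.69 for Irf9 and Irgm2, while it was 0.81 for Irf2 and Nlrc5 and 0.80 for Irf7 and Icam1. Within the 15, it was 0.80, 0.52, 0.80, 0.13 and 0.28 for the same pairs. The 27 arrays share 3 donors, so they are not independent.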

How the data were processed

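Gene expression was measured on 27 Affymetrix rat arrays, grouped by the labels into 9 groups of 3 donors. The authors deposited log2 signals made with RMA, and the labels also name limma, both without a version. Values ran from 2.28 to 14.5 and array medians from 5.95 to 6.03, and they were used as deposited, without a filter. Of 31099 probe sets 20832 had 1 symbol in the platform annotation of 2016, 436 had several and 9831 none, and 20764 of the 20832 matched RefSeq GRCr8 by Entrez identifier. Each gene took its brightest probe set. A mean for each of the 9 groups was fitted to all 27 arrays together in limma 3.58.1 (R 4.3.3), with eBayes and Benjamini-Hochberg adjustment over 14218 genes per comparison, called at an adjusted p under 0.05. Intervals are 95% confidence intervals of that fit, and 3 arrays per group limit the precision. The fit of T3 + IFNγ against T3 at 96 h was tested on simulated data that held no donor effect. The members, lists and tests were chosen with earlier results of these data known. Named genes are all probe sets of the members, the other measured family members, up to 4 called genes with the largest change from each pathway list, the 3 genes most like each member, and named microglial markers. The replicate numbers are donors in the labels. Deviations from group means correlated with a median r of 0.310 over 108 pairs of arrays of a donor. Over 216 pairs of different donors and groups it was −0.171. Subtracting the mean of 3 donors itself makes the second value negative where the first is positive, so it is no independent baseline. The highest correlation between arrays was 0.997. Python 3.11.15 with pandas 2.3.3, NumPy 2.4.6, SciPy 1.17.1 and matplotlib 3.10.9 made tables and plots.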

Additional observations from a re-analysis of the deposited data

Results flagged for a closer look

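The effect of IFNγ differed between 8 and 96 h for 7 named genes around the factors (interaction, limma adjusted p under 0.05 over all genes). For none of the 5 factors it did, and 4.32% of all genes were called. The named genes were picked for a large change at any time or after their values were seen. Their count therefore cannot be set against that share. Psmb9, Ifit2, Ifit3 and Ciita belong to the targets counted above, and the other targets called there are not named. For Psmb9 the log2 change grew by 2.26, from 4.55 to 6.81 (adjusted p = 1.56e-05). For Ifit2 it grew by 1.85, from 4.99 to 6.83 (adjusted p = 6.73e-04), and for Ifih1 by 0.76, from 1.29 to 2.05 (adjusted p = 0.00325). For Ifngr2 it grew by 0.55, from 0.02 to 0.57 (adjusted p = 0.0222). For Batf3 the difference was −1.26, from 1.45 to 0.20 (adjusted p = 0.0115). A further pair was named after its values were seen. For Ifit3 the change grew by 4.44, from 0.70 to 5.14 (adjusted p = 1.26e-05), and for Ciita, the class II transactivator, the difference was −1.14, from 3.38 to 2.24 (adjusted p = 0.0115).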

How the results depend on the processing

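The 5 factors were called higher with IFNγ at each time, against T3 and against PDGF, under each of the 11 alternatives, except Irf2 when its 3 probe sets were averaged, at 24 h against T3 (0.27, adjusted p = 0.0602) and at 8 h against PDGF (0.24, adjusted p = 0.0774). The changes with IFNγ ran from 5.17 to 6.50 for Irf1, 4.70 to 5.70 for Irf8, 3.18 to 3.71 for Irf9, 1.38 to 2.11 for Irf7 and 0.27 to 1.13 for Irf2. No direction of a called value reversed. The alternatives were a replicate block on donor, centring of array medians, a filter on dim genes, eBayes with trend and robust, only the arrays compared, all probe sets adjusted together, averaged probe sets, leaving out each donor, and, chosen after seeing the data, leaving out the donor 2 arrays of T3 + IFNγ at 8 and 24 h, which changed no call.

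The small changes without IFNγ were less stable, and the causes were not tested. With the replicate block the number of factors called with T3 against PDGF went from 0 to 1 at 24 h and from 1 to 2 at 48 h, and over the T3 steps from 1 to 2 for 8 to 24 h, from 1 to 2 for 24 to 48 h and from 0 to 1 for 48 to 96 h. The replicate block changed no other call. With only the arrays compared the number went from 1 to 0 at 96 h against PDGF and for the T3 steps from 8 to 24 h and 24 to 48 h. Averaged probe sets took the 8 to 24 h step to 0, and the filter on dim genes took it to 2. Leaving out each donor in turn gave 0 to 1 at 24 h, 1 to 2 at 48 h and 0 to 1 at 96 h against PDGF, 0 to 1 for the 8 to 24 h and the 24 to 48 h step, and 0 to 1 for the difference in IFNγ effect between 8 and 96 h.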
